A study of Mus musculus with 4 samples.

Results

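The 10 macrophage identity genes Csf1r, Cd68, Mrc1, Cd163, C1qa, C1qb, C1qc, Lyz2, Adgre1 and Cd14 were followed in lesional facial skin. They were chosen by name: every entry of the deposited table whose gene symbol was one of the 10 was taken, which gave 15 tag clusters of 67319 distinct clusters, and 10 of 17849 genes. Capped RNA 5′ ends were counted by CAGE (cap analysis of gene expression), in which short tags are meant to mark transcription starts. Levels in CPM (tags scaled to the library's total) therefore do not depend on transcript length and can be set side by side between genes. The 4 libraries form 1 group. Each came from C57BL/6 mice at postnatal day 28 with the genotype Nectin-cre(+);Ikk2FL/FL;Postn-/-: a Cre transgene, floxed alleles of the kinase Ikk2, and no functional gene for the matrix protein periostin. FADS is the name the study gives this facial dermatitis model. The labels do not say in which cells the Cre is active, what the endings L (libraries 1 and 3) and R (libraries 2 and 4) of the sample codes mean, or whether 4 animals were used. The first part of the code is shared by libraries 1 and 2 and, in another form, by libraries 3 and 4, which the labels do not explain either. The 4 libraries may therefore not be independent, and each SD and p-value here reflects differences among 4 samples that could be technical in origin. All libraries lack Postn and all are lesional, so no comparison with other skin was made.

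Skin holds macrophages in the dermis and around vessels and hair follicles, joined in inflammation by monocytes from the blood. Csf1r is the receptor for Csf1 and Il34, the growth factors on which most tissue macrophages depend. Adgre1 encodes the F4/80 surface protein, Cd68 a lysosomal glycoprotein, Lyz2 a lysozyme, and Mrc1 and Cd163 scavenger receptors for mannosylated glycoproteins and for haemoglobin bound to haptoglobin. C1qa, C1qb and C1qc encode the chains of C1q, which starts the classical complement pathway and in most tissues is made mainly by macrophages. Cd14 is the co-receptor that passes lipopolysaccharide to Tlr4. Several of these genes are not specific to macrophages: neutrophils also carry Lyz2, Langerhans cells Csf1r and Adgre1, lymphatic endothelium Mrc1, and keratinocytes can carry Cd14.

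The promoter sequences are shown first, with the extent of the tag clusters on them. Promoter sequences came from RefSeq (GRCm38.p6), where 6 of the 10 genes were matched. Each stretch is 180 bases long and holds at most 30 bases of annotated exon. The capitals mark bases that lie in the gene's most used deposited tag cluster. They show the extent of the cluster, not the bases at which single tags began.
C1qb, chr4:136886171-136886350, minus strand: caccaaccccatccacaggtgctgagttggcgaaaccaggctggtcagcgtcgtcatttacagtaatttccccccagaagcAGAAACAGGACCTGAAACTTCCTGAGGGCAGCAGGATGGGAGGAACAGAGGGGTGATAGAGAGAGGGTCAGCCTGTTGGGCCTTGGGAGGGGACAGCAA
Mrc1, chr2:14229242-14229421, plus strand: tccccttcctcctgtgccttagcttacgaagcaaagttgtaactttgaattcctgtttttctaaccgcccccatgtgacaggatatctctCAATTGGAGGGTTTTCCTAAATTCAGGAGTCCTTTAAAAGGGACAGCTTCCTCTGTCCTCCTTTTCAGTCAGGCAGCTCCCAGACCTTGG
Cd68, chr11:69666141-69666320, minus strand: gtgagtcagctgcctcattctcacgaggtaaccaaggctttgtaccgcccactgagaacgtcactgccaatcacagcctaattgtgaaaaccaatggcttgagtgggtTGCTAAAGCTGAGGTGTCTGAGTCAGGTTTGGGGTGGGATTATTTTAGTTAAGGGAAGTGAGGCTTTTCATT
Cd163, chr6:124304501-124304680, plus strand: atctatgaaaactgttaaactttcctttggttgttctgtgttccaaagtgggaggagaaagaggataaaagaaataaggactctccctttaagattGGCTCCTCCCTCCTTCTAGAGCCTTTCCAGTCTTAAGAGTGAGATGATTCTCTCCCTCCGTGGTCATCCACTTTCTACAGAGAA
Lyz2, chr10:117282292-117282471, minus strand: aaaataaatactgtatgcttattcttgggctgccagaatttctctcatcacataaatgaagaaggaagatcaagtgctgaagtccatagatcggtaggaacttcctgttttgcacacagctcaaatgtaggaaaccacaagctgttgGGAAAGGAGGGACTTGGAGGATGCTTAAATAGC

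The clusters of these 5 genes were spread over 99 bases or more and in part lie beyond the stretches shown. The Lyz2 stretch ends before the RefSeq start at 117282272, and its cluster runs on to 117282161. The TATA motif TATAAA, searched on both strands from 250 bases before to 50 after the RefSeq start, occurred in 0 of the 6 matched promoters, against 13.6% of 32851 promoters of this length. GAGGAA, the core bound by the myeloid factor PU.1 (Spi1) and by other ETS factors, occurred in 4 of 6 (C1qb, C1qc, Cd68 and Mrc1), against 28.3%. In C1qb its first base lay at position -30 from the RefSeq start, and in Mrc1 at -35, -167 and -180 on the opposite strand, where it reads TTCCTC. The CCAAT motif occurred in 3 of 6 (Cd163, Cd68 and Mrc1), against 37.4%. TGANTCA, the AP-1 site, occurred in 1 of 6, Cd68, at -24 and -149, against 7.81%. Such matches describe the letters only, and 6 promoters are too few to set against a share of all promoters.

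Lyz2 was the most abundant of the 10 genes. It stood at 38.3, 34.3, 41.9 and 39.6 CPM in libraries 1 to 4, with a mean of 38.5 ± 3.2 CPM (SD, n = 4). Its 4 values lay close together, with a coefficient of variation of 8.32%. After TMM scaling, which corrects for a few very abundant genes, it was 3.89%. That is near the 3.79% of counting error at the gene's mean tag number per library (2791 tags over the 4 libraries). All tags of Lyz2 lay in 1 cluster at its annotated start. Its paralogue Lyz1, which is nearly identical in sequence and can exchange tags with it, was listed at 1.83 ± 0.733 CPM.

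Csf1r, the growth factor receptor, stood at 24.4, 23.6, 30.2 and 26.0 CPM (26.1 ± 2.96, SD, n = 4). Library 3 was the highest and the other 3 libraries lay within a narrow band. Its single cluster, at chr18:61105780-61105961, spans an annotated transcript start at 61105852 and takes in the first base of exon 2, at 61105781, of a longer transcript. The gene's first annotated base, 61100598, lies 5182 bp before the cluster.

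The C1q genes stood near Csf1r. C1qa had 25.9, 25.5, 28.1 and 26.2 CPM (26.4 ± 1.17), the smallest relative spread of the 10 genes at 4.42%, no larger than the 4.57% of counting error alone. C1qc had 25.1, 23.1, 28.7 and 22.4 CPM (24.8 ± 2.82). C1qb had 20.6, 16.4, 21.2 and 17.0 CPM (18.8 ± 2.47). C1qc and C1qb were higher in libraries 1 and 3 than in libraries 2 and 4, whereas C1qa did not separate the libraries in this way. On the log2 scale, C1qc over C1qb was 0.40 ± 0.09 (SD, n = 4), with the same sign in 4 of 4 libraries. C1qa over C1qc was 0.10 ± 0.11 and positive in only 3 of 4.

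**Figure D1:**
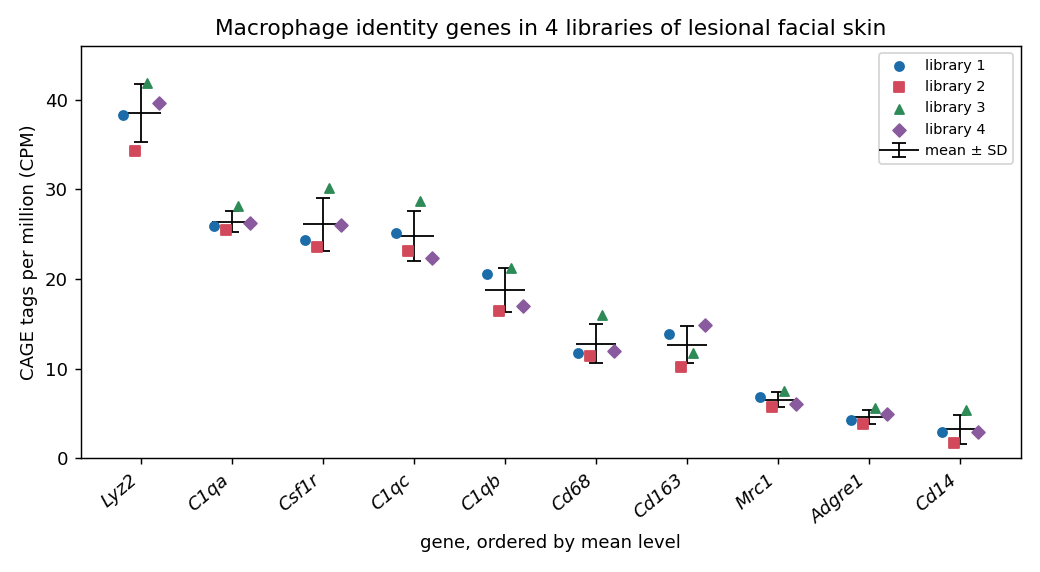
CPM of each gene in each library (points), with the mean and SD over 4 libraries (bars); the genes are ordered by mean level. Lyz2 stands alone at 38.5 CPM, C1qa, Csf1r and C1qc lie together between 24.8 and 26.4, and Cd14 is lowest at 3.24 CPM.

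The C1q genes lie side by side on chromosome 4 and differed in where their tags began. C1qb (gene at chr4:136880129-136886187, minus strand) had 1 cluster, wider than 92.8% of the most used clusters of all genes tested, over its annotated start. C1qc (chr4:136889804-136893065) had most of its tags, 80.5% ± 1.83 (SD, n = 4), in a cluster at chr4:136892852-136892932 over an annotated transcript start at 136892876. In libraries 1 to 4 that share was 79.2%, 78.6%, 82.4% and 81.6%. A further 19.0% ± 1.46 of C1qc tags fell in a cluster of only 5 bp, chr4:136892565-136892569, in the intron just before the first base of exon 2 at 136892563. The remaining 0.55% ± 0.482, 10 tags in all, lay at the last bases of exon 1.

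In C1qa (chr4:136895917-136898803) the cluster at the annotated start was the minor one. It held 14.4%, 15.8%, 14.5% and 13.8% of the tags of libraries 1 to 4, or 3.87 ± 0.225 CPM. The other cluster, chr4:136897841-136897859, was 19 bp wide, narrower than nearly all others (4.45% of genes had a narrower one), and spanned the first base of exon 2, at 136897844. Its nearest edge lay 944 bp past the annotated start. It held 85.6%, 84.2%, 85.5% and 86.2% of the tags (85.3% ± 0.844), or 22.6 ± 1.09 CPM. The 95% Wilson intervals of the 4 single shares ran from 80.6% to 89.0%, and they overlap. They cover counting error only. In both genes the start codon lies just inside exon 2, after 7 bases in C1qa and after 1 base in C1qc. The first 30 bases of exon 2, beside which these clusters lie, are shown from the GENCODE M21 transcripts on GRCm38, with the start codon in capitals.
C1qa, chr4:136897815-136897844, minus strand: ggacaccATGgagacctctcagggatggct
C1qc, chr4:136892534-136892563, minus strand: gATGgtcgttggacccagttgccagcctcc

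A most used cluster within 5 bp of the start of an internal exon, and over 100 bp from any annotated start of the gene, was found for 77 of 14722 genes, 0.523%, and among the 10 macrophage genes for C1qa alone. The deposited table holds clusters, not single tags. Counting only the top cluster per gene changed the order of levels: C1qa over Csf1r turned from log2 0.03 to -0.20, C1qc over C1qb fell from 0.40 to 0.09, and Csf1r over C1qc rose from 0.07 to 0.38.

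**Figure D2:**
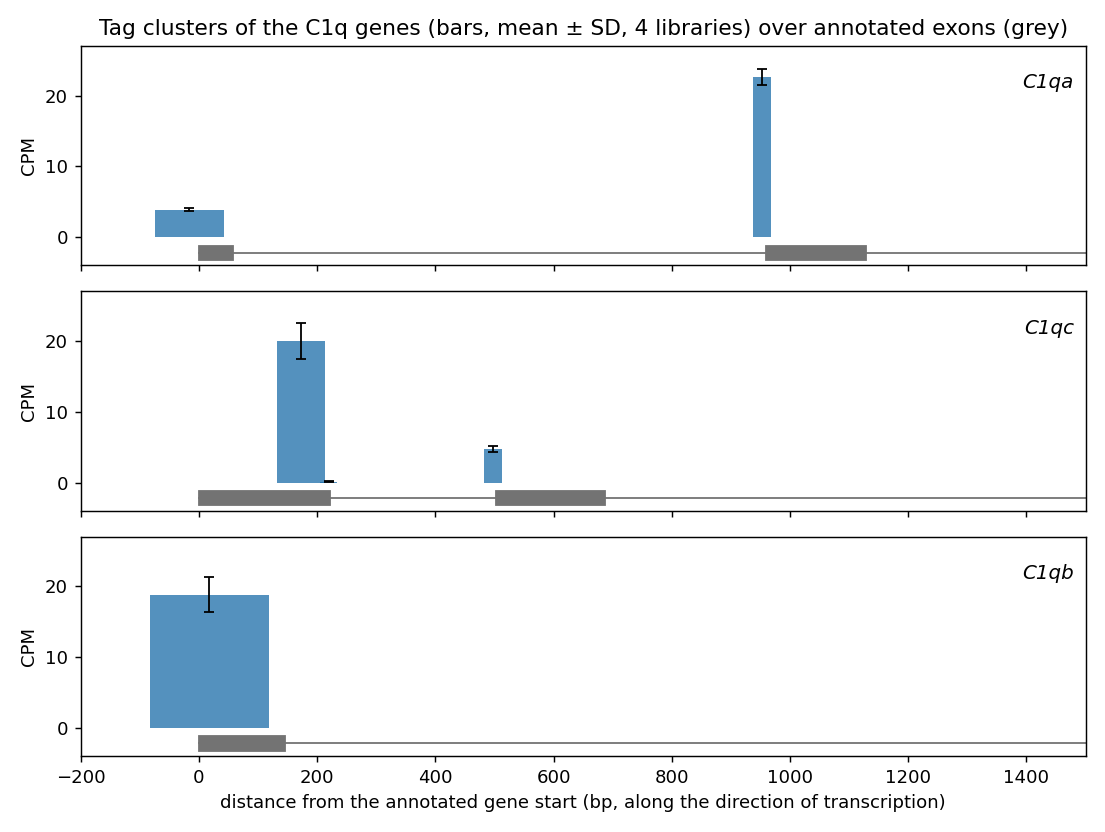
Mean CPM ± SD over 4 libraries (bars) of each tag cluster of C1qa, C1qc and C1qb against distance in bp from the annotated gene start, with exons in grey; clusters under 30 bp wide are drawn 30 bp wide. The tallest C1qa bar, 22.6 CPM, stands at exon 2, while the tallest bars of C1qc and C1qb (18.8 CPM) stand over exon 1.

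Cd68 stood at 11.7, 11.4, 16.0 and 12.0 CPM (12.8 ± 2.16), with library 3 apart from the other 3. Its main cluster, at chr11:69666065-69666212 over the annotated start, held 97.9% ± 0.823 of its tags. The other, of 19 tags in all, spanned the first base of exon 2. Cd163 was the only one of the 10 that was highest in library 4: it had 13.9, 10.2, 11.7 and 14.9 CPM (12.7 ± 2.11), from 1 cluster at chr6:124304597-124304695. The means of Cd68 and Cd163 are nearly equal, yet their log2 ratio was -0.24, 0.16, 0.45 and -0.31 in libraries 1 to 4, so which gene was higher depended on the library.

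Mrc1, the mannose receptor, stood at 6.88, 5.68, 7.54 and 6.08 CPM (6.54 ± 0.83). Its spread of 12.7% was little above the 9.19% of counting error. Cd163 exceeded Mrc1 in 4 of 4 libraries, by 1.92-fold on average (log2 0.94 ± 0.28). Adgre1 had 4.29, 3.82, 5.62 and 4.91 CPM (4.66 ± 0.776). Csf1r exceeded it 5.6-fold (log2 2.49 ± 0.10), a ratio that varied little between libraries. Mrc1 and Adgre1 had 1 cluster each, over an annotated start.

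Cd14 was the lowest and the most variable of the genes. It had 53, 32, 96 and 52 tags, or 2.92, 1.7, 5.45 and 2.9 CPM (3.24 ± 1.58). Library 3 was 3.2-fold above library 2, with libraries 1 and 4 between them and nearly equal. The coefficient of variation of 48.7% was well above the 13.1% of counting error. Its main cluster, chr18:36726575-36726721, held 84.6% ± 4.55 of the tags and lay 17 bp past an annotated transcript start at 36726738. The other, 36 tags at chr18:36726248-36726320, lay wholly inside the coding part of exon 2. Whether those 36 tags mark transcription starts was not tested.

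In all, 3 of the 10 genes (C1qa, C1qc and Cd14) had under 90% of their tags in the most used cluster, against 23.3% of 14729 genes tested. The most used clusters of the 10 had a median width of 143 bp, against 124 bp over all genes tested. Their median level was 15.8 CPM, below the 23.0 CPM of all genes tested. Among the 17034 genes analysed, their ranks by level ran from 5160 for Lyz2 to 12877 for Cd14. No cluster of the 10 genes was listed under another gene.

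The order of mean levels was Lyz2, C1qa, Csf1r, C1qc, C1qb, Cd68, Cd163, Mrc1, Adgre1 and Cd14. A neighbour was counted as different where the mean log2 ratio exceeded 2 SD with 1 sign in 4 of 4 libraries, which 5 of 9 pairs met. Lyz2 stood above C1qa (log2 0.54 ± 0.08), C1qc above C1qb, C1qb above Cd68 (0.56 ± 0.18), Cd163 above Mrc1 and Mrc1 above Adgre1 (0.49 ± 0.16). C1qa against Csf1r (0.03 ± 0.10), Csf1r against C1qc (0.07 ± 0.11), Cd68 against Cd163 (0.02 ± 0.36) and Adgre1 against Cd14 (0.63 ± 0.46) did not differ beyond their spread. An exact two-sided sign-flip test gave p = 0.125 for each of the 5 pairs and also for Adgre1 against Cd14. That is the smallest p that 4 libraries allow, so the test cannot pass 0.05.

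The libraries were then compared gene by gene. A gene's variance between the 4 libraries, on log2(CPM + 1) with TMM scaling, was set against that of genes of like level with limma, with Benjamini-Hochberg adjustment over all genes. It called 56 of 14729 genes, 0.38%, and 0 of the 10 macrophage genes. None of the 10 had an unadjusted p under 0.05, against 6.27% of all genes, and edgeR on the recovered tags called 0 of the 10 and 0.238% of all genes. Cd14 came nearest, with a range of 1.14 on the log2(CPM + 1) scale (limma adjusted p = 0.874). The ranges of the other 9 ran from 0.12 for C1qa to 0.39 for Cd68, with limma adjusted p from 0.993 to 0.995. A p that misses the threshold does not show that the libraries were alike. In simulated data, limma called 0% of genes changed 2-fold in 1 library and 62% of those changed 4-fold. In the 4 libraries, limma called 4 of 7 genes of secreted gland proteins, with ranges of 11.7 to 13.9 on the log2(CPM + 1) scale. It did not call Scgb1b27 (range 4.56, limma adjusted p = 0.11), Scgb2b27 (3.48, adjusted p = 0.165) or Lpo (2.67, adjusted p = 0.215). Whether the rates in simulated data hold for these libraries was not tested. The highest CPM was 3.2 times the lowest for Cd14 and 1.1 to 1.47 times for the other 9 genes. Differences as small as those of the 9 could not be expected to be called.

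In CPM as deposited, 9 of 10 genes were highest in library 3 (all but Cd163), where 35.3% of all genes tested had their highest value. Cd163 was highest in library 4, as were 35.4% of all genes. Likewise, 9 of 10 were lowest in library 2 (all but C1qc), against 50.6% of all genes. C1qc was lowest in library 4, as were 12.1%. With TMM scaling, 7 of 10 were highest in library 3, against 27.1% of all genes. C1qb was then highest in library 1 (25.3% of all genes), C1qa in library 2 (24.6%) and Cd163 again in library 4 (23.0%). On that scale 4 of 10 were lowest in library 2, against 22.3%, and 5 of 10 in library 4, against 24.2%. Csf1r was lowest in library 1 (24.1% of all genes). The summed level of the 10 genes was 174, 156, 196 and 172 CPM as deposited and 176, 167, 189 and 165 CPM with TMM scaling. The 7 genes of secreted gland proteins that were analysed, of 8 listed, summed to 11.5, 31793, 8.39 and 4716 CPM. Limma called 4 of them (Bpifa2, Mucl2, Obp1a and Smr3a). The 8 fibroblast genes, led by Col1a1, Col3a1, Dcn and Col1a2, summed to 3722, 3306, 6264 and 5537 CPM. The 8 keratinocyte genes, led by Krt10, Krt1, Krt6b and Krt14, summed to 8639, 7444, 11496 and 10390 CPM. Both sums were highest in library 3 and lowest in library 2. Of the Col3a1 and Col1a2 tags, 100% and 98% lay in clusters listed under another gene as well, so the fibroblast sum is uncertain. The 8 skeletal muscle genes, led by Acta1, Atp2a1, Tnnt3 and Myh4, summed to 3729, 2738, 4507 and 6631 CPM. Their part in the pattern was not tested. In bulk tissue fewer macrophages and less RNA per macrophage cannot be told apart.

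**Figure D3:**
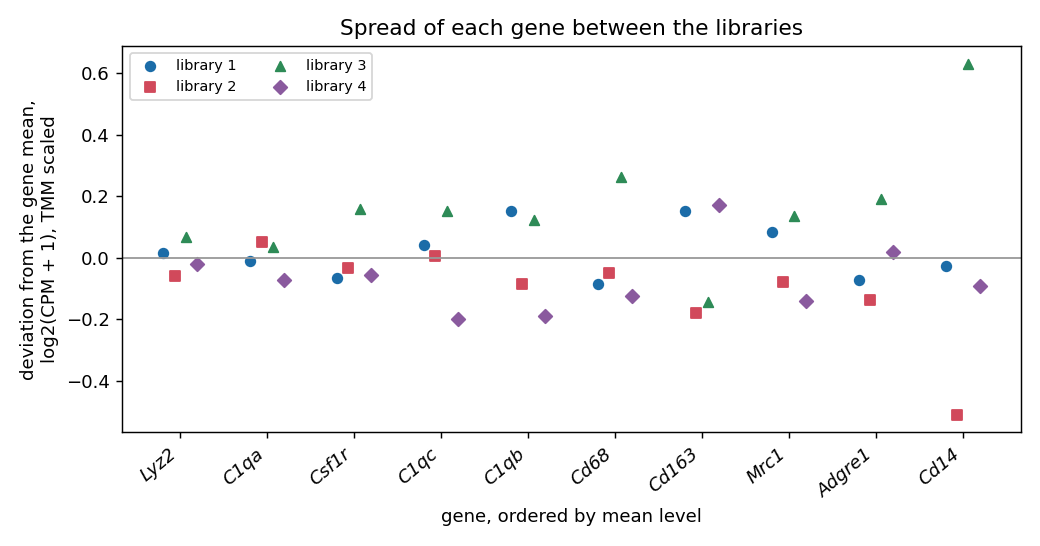
Deviation of each library from the gene's mean on the log2(CPM + 1) scale after TMM scaling, for the 10 genes. Library 3 is the highest point for 7 of 10 genes, and Cd14, with a range of 1.14, is spread more widely than the others.

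Genes that act with these were taken from lists of ligands, partners and regulators. Csf1, the macrophage growth factor, stood at 22.5, 18.2, 30.9 and 29.7 CPM (25.3 ± 6.02). Il34, the second ligand of Csf1r, which keratinocytes make and Langerhans cells need, stood at 10.9, 10.5, 17.4 and 16.2 CPM (13.7 ± 3.55). Both ligands were higher in libraries 3 and 4 than in libraries 1 and 2, the same division as that of the shared sample codes. Il34 stood at 0.542 of Csf1 in level, lower in 4 of 4 libraries (log2 -0.88 ± 0.11). Csf1 and Csf1r did not differ beyond their spread (log2 -0.07 ± 0.24).

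C1q works with the proteases C1r and C1s. C1ra stood at 9.43 ± 2.21 CPM and C1s1 at 16.5 ± 3.49 CPM. C1s1 exceeded C1ra in 4 of 4 libraries by a steady 1.75-fold (log2 0.81 ± 0.07), and C1ra stood at 0.35 of C1qa (log2 -1.51 ± 0.30). Serping1, the inhibitor of both proteases, was far higher at 57.5 ± 14.9 CPM, and its values of 49.2, 41.3, 73.8 and 65.8 CPM followed the order of C1s1. Of the later components, C4b stood at 8.62 ± 1.93, C2 at 6.56 ± 0.556 and C3 at 1.62 ± 0.63 CPM. Of the C2 tags, 64% lay in clusters listed under another gene as well, so its level is uncertain.

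Around Cd14, Tlr4 stood at 5.72, 5.9, 9.47 and 6.97 CPM (7.01 ± 1.73), and Ly96, which encodes the MD-2 subunit of the receptor, at 5.72, 4.41, 8.79 and 5.63 CPM (6.14 ± 1.87). All 5 tested genes of the Cd14 partner list were highest in library 3, as Cd14 and 35.3% of all genes tested were. Tlr4 was lowest in library 1, whereas Cd14 and Ly96 were lowest in library 2. Tlr4 exceeded Cd14 by 2.3-fold (log2 1.20 ± 0.43, 4 of 4 libraries). Tlr2 stood at 2.27 ± 0.31, the lipopolysaccharide-binding protein gene Lbp at 1.36 ± 0.412 and the adaptor Ticam2 at 0.429 ± 0.182 CPM, while the adaptor Myd88, used by nearly all cell types, stood at 73.3 ± 12.0 CPM. Limma called 0 of 2 ligand, 0 of 5 Cd14 partner and 0 of 6 complement genes as more variable than genes of their level (unadjusted p under 0.05 in 0, 0 and 1), against 0.38% of all genes.

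**Figure D4:**
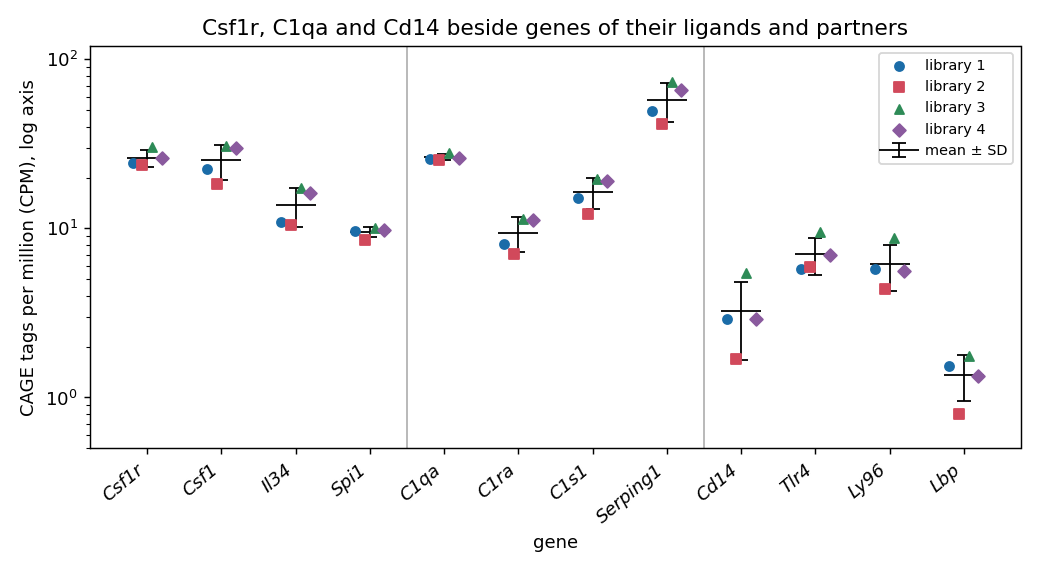
CPM (log axis) of Csf1r, C1qa and Cd14 with genes of their ligands and partners in each library (points), with mean and SD over 4 libraries. Csf1 lies level with Csf1r, C1ra below and Serping1 above C1qa, and Tlr4 and Ly96 above Cd14.

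Among the transcription factors of the macrophage programme, Spi1, which encodes PU.1, stood at 9.51 ± 0.658 CPM, or 0.366 of Csf1r (log2 -1.45 ± 0.10), and was lower in 4 of 4 libraries. Cebpb (296 ± 7.25), Cebpa (116 ± 27.5) and Maf (102 ± 11.5) were higher, and all are expressed by epidermal cells as well. Irf8 stood at 4.68 ± 0.503 CPM. Limma called 0 of the 8 genes of this list (0.38% of all genes), with 1, Cebpa, at an unadjusted p under 0.05 (6.27% of all genes).

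The list of other macrophage genes held 34 symbols, of which 30 were analysed and 25 tested, with a median level of 9.03 CPM. Limma called 0 of them (0.38% of all genes), with 1 at an unadjusted p under 0.05 (6.27% of all genes). That gene, Gpnmb, a glycoprotein gene that melanocytes also express, had 136, 126, 54.2 and 54.8 CPM (limma adjusted p = 0.149), higher in libraries 1 and 2 than in libraries 3 and 4. Lgals3 (507 ± 19.9), Ctsd (491 ± 37.6), Ctsb (482 ± 70.0) and Cd9 (410 ± 32.7) led it, genes that many skin cells use. Of those more restricted to myeloid cells, Fcgr2b stood at 23.2 ± 3.14, Fcer1g at 20.6 ± 3.42, Tyrobp at 16.7 ± 2.56, Mertk at 16.7 ± 2.27, Mgl2 at 14.2 ± 3.22 and Pf4 at 11.9 ± 2.37 CPM. Stab1, a scavenger receptor of macrophages and sinusoidal endothelium, stood at 8.47 ± 1.1 CPM and exceeded Mrc1 in 4 of 4 libraries (log2 of Mrc1 over Stab1 -0.37 ± 0.10). Trem2 (0.857 ± 0.19), Siglec1 (0.729 ± 0.142), Msr1 (0.569 ± 0.263) and Fcgr1 (0.373 ± 0.237) were each below 1 CPM on average, where 3 tags are worth 0.159 to 0.17 CPM. Single genes of this paragraph beyond the 4 highest were picked after their values were seen.

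Markers of other cells that share these genes were also present. Of 11 monocyte genes, all were analysed, and Ly6c2 (0.331 ± 0.163), Ccr2 (0.715 ± 0.0882) and Cx3cr1 (0.665 ± 0.192 CPM) were low beside the 26.1 CPM of Csf1r. Its 4 highest members were Fn1 (145 ± 16.4), F13a1 (29.9 ± 2.65), Plac8 (13.6 ± 5.08) and Itgam (4.79 ± 1.21 CPM). All tags of Itgam (100%) lay in clusters listed under another gene as well, so its level is uncertain. The list summed to 168 to 223 CPM over the libraries.

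The neutrophil list, with 10 of 13 genes analysed, summed to 342, 456, 643 and 501 CPM and was led by S100a8 (273 ± 64.5) and S100a9 (184 ± 59.2), which activated keratinocytes make too, with Ltf (11.1 ± 8.04) and Mmp9 (8.4 ± 1.92) after them. Retnlg, a gene of neutrophils, had 3.63, 2.97, 6.18 and 3.9 CPM and was highest in library 3 and lowest in library 2, as Cd14 was. Csf3r, at 1.49, 1.27, 2.38 and 1.51 CPM, was likewise highest in library 3 and lowest in library 2. Of all genes tested, 35.3% were highest in library 3 and 50.6% lowest in library 2. Other genes of the list were ordered differently: Ltf was highest in library 2, Cxcr2 in library 1, and S100a8 and S100a9 were lowest in library 1. Csf3r stood at 1.66 ± 0.491 and Cxcr2 at 2.29 ± 0.294 CPM. Their part in the levels of Lyz2 and Cd14 was not tested.

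The dendritic and Langerhans list, with 10 of 12 genes analysed, summed to 517, 535, 724 and 700 CPM, led by Cd74 (205 ± 52.7), Epcam (176 ± 20.7), H2-Ab1 (136 ± 30.4) and Mfge8 (61.6 ± 4.9). Cd207, a marker gene of Langerhans cells, stood at 3.16 ± 1.11 CPM. The lymphatic list, with 6 of 6 genes, summed to 37.9 to 61.3 CPM, led by Pdpn (31.5 ± 6.2) and Ccl21a (8.07 ± 2.6), with Lyve1 at 3.17 ± 0.675 and Prox1 at 1.95 ± 0.565 CPM. The eosinophil list, with 3 of 7 genes, summed to 6.22 to 14.1 CPM, of which Ear2 made up 8.8 ± 3.15 CPM, and Siglecf held 2 or 3 tags in each library. The mast cell list, with 8 of 8 genes, summed to 63.9 to 80.4 CPM, led by Kit (29.1 ± 6.64), which melanocytes also carry, Tpsb2 (15.4 ± 2.48), Cma1 (13.2 ± 2.0) and Mcpt4 (6.4 ± 0.694). Their part in the levels of Csf1r, Adgre1 and Mrc1 was not tested.

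The profile of each C1q gene over the libraries was compared with that of every other gene of at least 10 CPM. The measure was the root mean square difference of deviations from the mean on the log2(CPM + 1) scale after TMM scaling. With 4 libraries this is a description only. The 5 genes nearest to C1qb were Tnip1 (0.0112), Zfp51, Gm9057, Gm5513 and Gba2, and C1qc ranked 145 of 10309 (0.0737). Nearest to C1qc were Igsf3 (0.00649), Bicd2, Ampd2, Chmp1b and Oxsm, with C1qb at rank 362. Among those nearest to C1qa, which hardly varied, were Slc6a8 (0.00415), Spindoc and Rnpep, with C1qc at rank 4592 and C1qb at 6935 (0.128). The sum of the 10 genes was most like Acer1 (0.00606), Pfkp, Stat6, Tmem189 and Slc10a7. C1qb and C1qc lay closer to each other (0.0737) than C1qb (0.128) or C1qc (0.0926) did to C1qa.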

How the data were processed

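The deposited table held, for 69391 entries, CPM that the authors scaled to the total of all entries. Per the submitters' processing notes, BWA, HISAT2 and the mm9 build were used. The coordinates match GRCm38: of 49029 named entries, 99.9% fell on their own gene in GENCODE M21, allowing 1000 bp. How tags were clustered is not stated in these sources. In narrow clusters the purine share was mirrored between strands only if the deposited start counts from 0, so 1 was added to it. Values were whole multiples of 1 tag in 100% of cases (tolerance 0.02 tags). The totals were 18179860, 18823630, 17630119 and 17939565 tags. Intervals and floors cover counting error only.

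Tags were summed per gene, leaving out 779 genes that had 90% or more of their tags in entries given to a second gene, and 3 repeated symbols. The spread test used genes of at least 1 CPM on average, TMM scaling (0.988, 0.931, 1.04 and 1.05 for libraries 1 to 4), log2(CPM + 1), and limma 3.58.1 with a robust trended prior, a one-sided F test and Benjamini-Hochberg adjustment at 0.05. edgeR 4.0.16 and DESeq2 1.42.0 on recovered tags were alternatives. Ratios had 0.5 tags added. The script was tested on simulated data.

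Genes were named by rule: all 10 members, all genes of the 3 partner lists, the 4 highest of each other list with any called, and the 5 nearest profiles; a few of these are not reported here. Other genes named from the lists (such as Retnlg, Csf3r, Cxcr2, Ly6c2, Ccr2, Cx3cr1, Cd207, Prox1, Siglecf, Spi1, Irf8, Lyz1 and Gpnmb) were picked outside the rule, with their values known. Members and lists were chosen with earlier results of these data known.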

Additional observations from a re-analysis of the deposited data

Results flagged for a closer look

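The level of Cd68 in library 3, 16.0 CPM, stood far from those of the other 3 libraries, which lay between 11.4 and 12.0 CPM. It was the only one marked among 46 sets of 4 library values checked (levels, cluster shares and log2 ratios). By chance about 1 in 20 such sets is marked. The mark rests on CPM as deposited. With TMM scaling, Cd68 had 11.9, 12.2, 15.4 and 11.5 CPM in libraries 1 to 4.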

How the results depend on the processing

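The number of genes that limma called as more variable between libraries depended on the processing. It was 56, but 104 without TMM scaling, 34 with DESeq2 size factors, 34 with a pseudocount of 2 CPM, 0 with at least 10 tags in every library (920 there had an unadjusted p under 0.05), 35 with edgeR and 259 as marked by DESeq2's dispersion outlier call. Leaving out 1 library at a time gave 10 (without library 4) to 111 (without library 3). The filter of 10 tags removes genes near 0 in some libraries. Why the count changed was not tested for any of these settings. Of the 10, 9 were highest in library 3 as deposited and 7 with TMM scaling, an alternative chosen after seeing the data. The count of macrophage genes called was 0 under every one of these settings. Since limma called 0% of 2-fold changes in simulated data, that count says little about how steady these genes were. At an unadjusted p under 0.05, which the DESeq2 call does not give, the count was 0 as well, save for Cd14 without library 1 (limma adjusted p = 0.803). The summed level of the 10 genes, the count of genes with under 90% of tags in 1 cluster and the counts of pairs beyond their spread each stayed within 1 SD or 1.5 times. Of single values, 3 levels moved by over 1 SD and 5 ratios came to pass or no longer passed their spread. Of these 8, Adgre1 over Cd14 passed its spread without library 3 (log2 0.82), C1qa moved to 28.2 CPM when only distinct clusters made up the total, and the other 6 changed with the most used cluster alone and involve C1qa or C1qc. Depth limits Cd14, with 32 to 96 tags a library, and Adgre1, with 72 to 99. No paired analysis was possible because the labels give 1 group; libraries 1 and 2, and 3 and 4, share a part of their sample codes, but no comparison between groups exists to block on it.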

Other observations

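Some entries with no gene name lay in or within 5000 bp of these genes. Inside Cd163, a cluster on the opposite strand at chr6:124321550-124321669 held 40, 31, 38 and 31 tags (1.93 ± 0.285 CPM, SD, n = 4), and a cluster on the same strand, 2418 bp past the gene start, held 12, 11, 13 and 8 tags. In Csf1r a cluster at chr18:61127775-61127779 held 3, 4, 6 and 4 tags.

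Among genes of at least 10 CPM, C1qa was not alone in having its most used cluster at an internal exon start. S100a9 (98.1% of its tags there), Retnla (98.5%), the complement inhibitor gene Serping1 (80.3%) and the leukocyte actin-bundling gene Lcp1 (93.6%) had the same arrangement. These were named after their values were seen.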
